A study of Rattus norvegicus with 8 samples.

Results

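The miR-148 and miR-152 family was read out in rat bone taken from around titanium implants. Its rows were found by name, as every row of the authors' table called rno-miR-148a, rno-miR-148b or rno-miR-152 with any arm suffix, which gave 6 of 974 miRNAs. They are the 3p and the 5p arm of each of the 3 hairpins. The 4 hyperlipidemic libraries came from femur bone of male Wistar rats given a high-fat diet for 8 weeks, and the 4 normal libraries from male Wistar rats given a normal diet for the same time. All 8 libraries share the implant, which was placed in the shafts of both femurs, the collection at day 10 after implantation and an age of 12 to 13 weeks. The bone was cut with a margin of 1 mm around the implant and freed of muscle. MiRNAs of blood cells were abundant in every library, beside the mesenchymal miRNAs of the miR-199a and miR-214 kind. The labels do not say whether each library was 1 rat, so the p-values measure the spread between these samples. In whole tissue, fewer cells of a type and less RNA per cell cannot be told apart.

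A miRNA hairpin is cut into a duplex of a 5p and a 3p strand, and one strand, the guide, is usually kept in Argonaute while the other, the passenger, is degraded. The guide finds its target transcripts mainly through its seed, here bases 2 to 8. MiR-148a, miR-148b and miR-152 share the seed of their 3p guide and are described as lowering DNMT1, the maintenance DNA methyltransferase. In mouse liver miR-148a is described as acting on the LDL receptor and on the cholesterol exporter ABCA1, and in monocyte cultures as promoting osteoclast formation. The rat genes Mir148b and Mir152 lie within Copz1 and Copz2, paralogous genes for the zeta subunit of the coatomer of transport vesicles, while Mir148a lies within no gene of the reference table for the assembly GRCr8.

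The mature sequences are shown because the 3 guides share a seed and differ in few other bases. They are those of RefSeq for GRCr8, which held 5 of the 6 arms and no entry for rno-miR-148b-5p. Capitals mark the seed.
rno-miR-148a-3p: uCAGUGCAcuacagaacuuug
rno-miR-148b-3p: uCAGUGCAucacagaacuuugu
rno-miR-152-3p: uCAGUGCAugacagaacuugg
rno-miR-148a-5p: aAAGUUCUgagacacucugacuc
rno-miR-152-5p: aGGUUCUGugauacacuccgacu
No other of the 693 rat mature miRNAs in that table carries the guide seed, so the 3 guides are the whole seed family there. Positions are counted from 1 at the 5′ end. Over the 21 positions they share, rno-miR-148b-3p differs from rno-miR-148a-3p by C9U and U10C, which lie just behind the seed. In rno-miR-152-3p the differences from rno-miR-148a-3p are C9U, U10G and U20G, and those from rno-miR-148b-3p are C10G and U20G. With 2 or 3 differing bases, reads with errors could pass from one guide to another, and how the authors assigned such reads is not stated. The passenger arms listed do not share a seed: that of rno-miR-148a-5p is AAGUUCU and that of rno-miR-152-5p is GGUUCUG. The Mir148a hairpin, shown to place the arms, carries the 5p passenger first and the 3p guide behind the loop, both in capitals.
Mir148a: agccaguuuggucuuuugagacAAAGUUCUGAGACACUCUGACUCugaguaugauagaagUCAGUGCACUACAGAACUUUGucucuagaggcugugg

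Values are in RPM, reads per 1000000 of the scale on which the authors set the 604 catalogued rno- miRNAs. The catalogued rows held 2403566 to 4314320 recovered reads in hyperlipidemic libraries and 846277 to 1552051 in normal ones. Normal replicates 3 and 4 stood apart from the rest on the first principal component of the catalogued miRNAs (scores 10.5 and 17.9, against -9.26 to 1.92 in the other 6 libraries). The members' log2 folds, their ratios and the family's share are given with and without them. In these 2 libraries the erythroid list (miR-144-3p, miR-144-5p, miR-451-5p and miR-486) held 8.95% and 7.77% of the catalogued signal, against 17.9% to 33.1% in the other 6. The list of miR-223 and miR-142 arms, which are myeloid and leukocyte miRNAs, held 9.34% and 6.08% there, against 14.8% to 20.2%. MiR-122-5p, the miRNA that defines hepatocytes, in which miR-148a is also abundant, held at most 0.000945% of the signal in any library and was listed at 0 in hyperlipidemic replicate 3 and normal replicate 1.

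MiR-148a-3p was by far the most abundant member, and its high values came from 2 normal libraries. It stood at 11555, 14105, 8937 and 10204 RPM in hyperlipidemic replicates 1 to 4, against 12833, 11633, 29981 and 27281 RPM in normal replicates 1 to 4. The hyperlipidemic libraries lay close together and overlapped normal replicates 1 and 2, while normal replicates 3 and 4 were above all others. The means were 11200 ± 2212 RPM in hyperlipidemic and 20432 ± 9544 RPM in normal libraries (mean ± SD, n = 4 per diet), which made it number 16 of the 604 catalogued miRNAs by mean level. The fitted log2 fold was -0.76 (SE 0.35, 95% interval -1.55 to 0.03) and did not pass (limma adjusted p = 0.290 over 696 miRNAs tested). Without normal replicates 3 and 4 the log2 fold was -0.15 (SE 0.22, limma adjusted p = 0.859). At least 16238 reads stood behind every value, so counting error is small beside the spread between libraries.

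MiR-152-3p, the guide of the Copz2-hosted hairpin, had the same layout at a lower level. It stood at 2125, 3264, 1560 and 3044 RPM in hyperlipidemic replicates 1 to 4, against 3480, 2479, 5930 and 5698 RPM in normal replicates 1 to 4. Again normal replicates 3 and 4 were the highest of the 8, and normal replicate 2 lay among the hyperlipidemic libraries. The means were 2498 ± 797 RPM in hyperlipidemic and 4397 ± 1689 RPM in normal libraries (mean ± SD, n = 4 per diet). The log2 fold was -0.79 (SE 0.36, 95% interval -1.59 to 0.02, limma adjusted p = 0.284), and -0.29 (SE 0.34, limma adjusted p = 0.812) without normal replicates 3 and 4.

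MiR-148b-3p, the guide of the Copz1-hosted hairpin, was the least abundant guide and overlapped between the diets. It stood at 746, 1225, 871 and 797 RPM in hyperlipidemic replicates 1 to 4, against 970, 917, 1745 and 1455 RPM in normal replicates 1 to 4. Hyperlipidemic replicate 2 was above normal replicates 1 and 2, and normal replicates 3 and 4 were once more the highest. The means were 910 ± 216 RPM in hyperlipidemic and 1272 ± 398 RPM in normal libraries (mean ± SD, n = 4 per diet), with a log2 fold of -0.46 (SE 0.28, 95% interval -1.10 to 0.18, limma adjusted p = 0.389). It was -0.08 (SE 0.25, limma adjusted p = 0.923) without normal replicates 3 and 4. In order of level the guides were miR-148a-3p, miR-152-3p and miR-148b-3p in each of the 8 libraries. Adapter ligation favours some miRNAs over others, so this order is one of read numbers.

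The passenger arms were scarcer and less alike. MiR-152-5p, the passenger of miR-152, was the one member whose groups did not overlap; 10.6% of the catalogued miRNAs tested lay lower in hyperlipidemic libraries in this way. It stood at 8.32, 11.7, 4.92 and 9.29 RPM in hyperlipidemic replicates 1 to 4, against 17.7, 22.9, 39.4 and 37.9 RPM in normal replicates 1 to 4. Every hyperlipidemic library was below every normal one, which leaving out libraries cannot change. The means were 8.57 ± 2.83 RPM in hyperlipidemic and 29.5 ± 10.8 RPM in normal libraries (mean ± SD, n = 4 per diet), with a log2 fold of -1.71 (SE 0.44, 95% interval -2.71 to -0.72) and an unadjusted p of 0.00359 by limma. It did not pass over all miRNAs tested (limma adjusted p = 0.10). By unadjusted p it was number 8 of the 396 catalogued miRNAs tested.

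These values rest on few reads. There were 40, 37, 13 and 31 reads of miR-152-5p in hyperlipidemic replicates 1 to 4 and 31, 32, 39 and 59 in normal replicates 1 to 4. The read numbers themselves overlap, and it is on the RPM scale, which divides by a larger depth in the hyperlipidemic libraries, that the groups part. The exact Poisson interval, which covers counting error only, ran from 2.62 to 8.41 RPM in hyperlipidemic replicate 3, the lowest, and from 28.8 to 48.8 RPM in normal replicate 4. That of hyperlipidemic replicate 2, the highest of its group, ran from 8.27 to 16.2 RPM and overlapped that of normal replicate 1, the lowest of its group, from 12.0 to 25.2 RPM. Without normal replicates 3 and 4 the log2 fold was -1.25 (SE 0.50, limma adjusted p = 0.464). With median-of-ratios factors it was -1.51 (limma adjusted p = 0.141). On the recovered reads of both classes with voom it passed (log2 fold -1.71, adjusted p = 0.0393), but that fit puts both classes on 1 pooled depth and moved the median of all miRNAs to -0.43. With each class on its own depth, an alternative added after seeing the data, it did not pass (voom adjusted p = 0.0632).

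MiR-148a-5p, the passenger of miR-148a, had the layout of its guide. It stood at 351, 495, 235 and 192 RPM in hyperlipidemic replicates 1 to 4, against 311, 272, 661 and 659 RPM in normal replicates 1 to 4. Normal replicates 1 and 2 lay within the hyperlipidemic range and normal replicates 3 and 4 above it. The means were 318 ± 136 RPM in hyperlipidemic and 476 ± 213 RPM in normal libraries (mean ± SD, n = 4 per diet), with a log2 fold of -0.56 (SE 0.42, limma adjusted p = 0.462). Without normal replicates 3 and 4 it was 0.03 (SE 0.40, limma adjusted p = 0.980), on the other side of 0.

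MiR-148b-5p, the passenger of miR-148b, was not highest in normal replicates 3 and 4. It stood at 48.0, 81.3, 78.3 and 80.3 RPM in hyperlipidemic replicates 1 to 4, against 98.3, 109, 73.7 and 103 RPM in normal replicates 1 to 4. Normal replicate 3, the highest library for the guide of this hairpin, was the lowest normal library for its passenger, on 73 reads. The means were 72.0 ± 16.01 RPM in hyperlipidemic and 95.9 ± 15.4 RPM in normal libraries (mean ± SD, n = 4 per diet), with a log2 fold of -0.43 (SE 0.29, 95% interval -1.08 to 0.23, limma adjusted p = 0.432). With normal replicates 3 and 4 left out it was -0.55 (SE 0.33, limma adjusted p = 0.621).

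**Figure D1:**
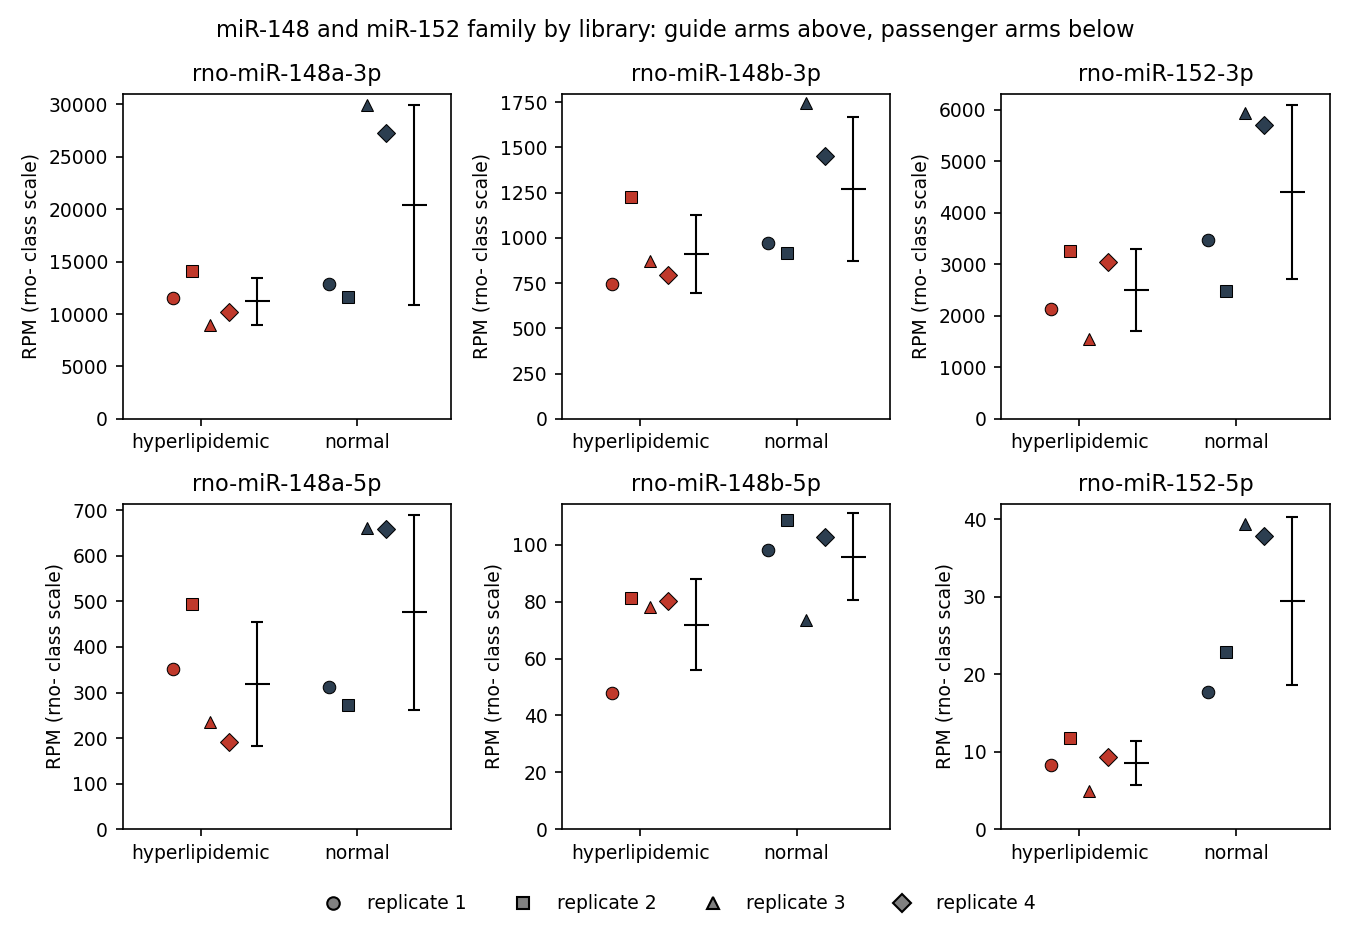
RPM of each of the 6 arms (y axis, on the scale of the rno- class) in the 4 hyperlipidemic and the 4 normal libraries, with marker shapes for replicates 1 to 4 and a bar for the mean ± SD. Normal replicates 3 and 4 are the 2 highest points for every arm except miR-148b-5p, and miR-152-5p is the one arm whose groups do not overlap.

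None of the 6 arms passed the threshold of an adjusted p under 0.05 by limma, where 0.718% of all 696 miRNAs tested did (5, all predicted miRNAs) and 0% of the 396 catalogued ones. An unadjusted p under 0.05 was reached by 1 of the 6 arms, miR-152-5p, against 15.7% of the catalogued miRNAs tested, and voom on recovered reads called 1 of the 6, or none with each class on its own depth. The groups did not overlap, on the lower side, for that 1 arm, or 1 in 6, against 10.6% of the catalogued miRNAs. All 6 passed the filter on low values. All 6 log2 folds were below 0, with a median of -0.66, against 61.9% below 0 and a median of -0.20 over the 396 catalogued miRNAs. Without normal replicates 3 and 4, 5 of the 6 were below 0 and their median was -0.22, against -0.13 over the catalogued miRNAs. Median-of-ratios factors moved the catalogued median to -0.00 and left the 6 arms between -1.51 and -0.22. In the authors' deposited table miR-152-5p is called down (fold 0.343, p = 0.00847, adjusted p = 0.236), and the other 5 arms are called unchanged, with folds of 0.625 to 0.754. The authors' folds are not the ratios of the mean RPM. Those ratios are 0.291 for miR-152-5p, below the authors' fold, and 0.751 for miR-148b-5p, above the authors' 0.712.

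**Figure D2:**
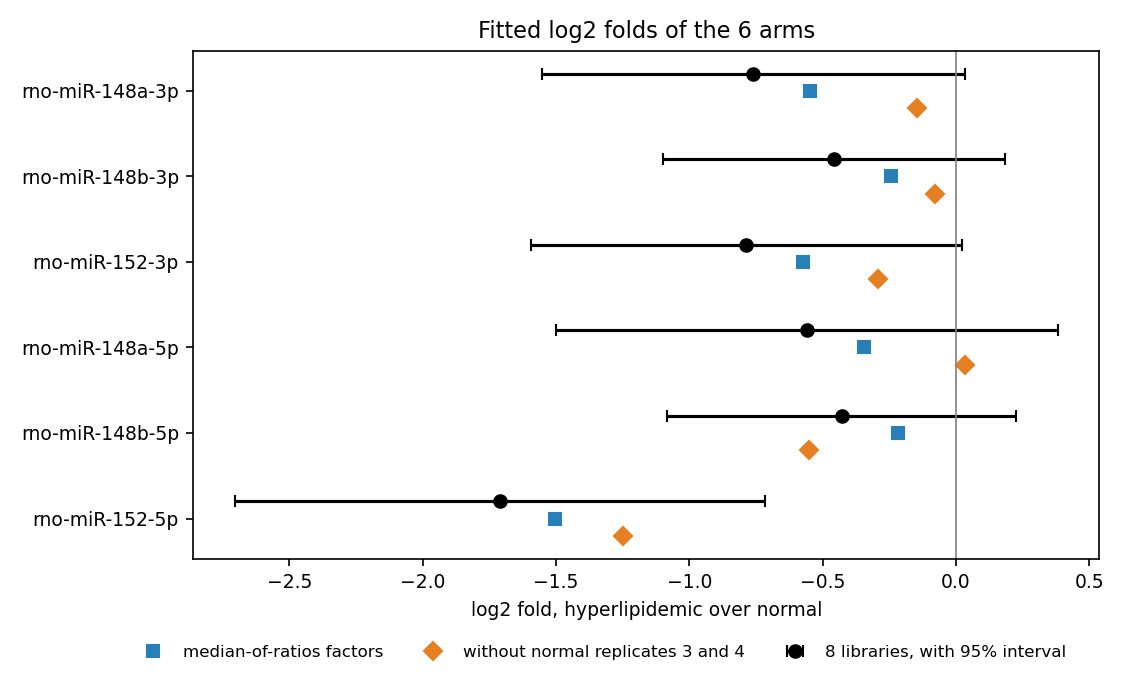
Fitted log2 fold of hyperlipidemic over normal libraries (x axis) for each of the 6 arms, from all 8 libraries with its 95% interval, with median-of-ratios factors, and without normal replicates 3 and 4. The interval leaves out 0 for miR-152-5p alone (-2.71 to -0.72, unadjusted), and without those 2 libraries the 3 guides lie between -0.29 and -0.08.

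A plain ratio of 2 arms within a library does not depend on the scale of the values, so the balance of guide and passenger was compared as a ratio. The tests used log2 ratios with the pseudocount of 0.475 RPM added to each arm, through which the scale still enters a little for scarce arms. For miR-152 the 3p guide was 255, 278, 317 and 328 times its 5p passenger in hyperlipidemic replicates 1 to 4, against 196, 108, 151 and 150 times in normal replicates 1 to 4. Each hyperlipidemic ratio was above each normal one. The mean ratios were 295 ± 33.7 in hyperlipidemic and 151 ± 36.02 in normal libraries (mean ± SD, n = 4 per diet), a difference of 0.92 on the log2 scale with the pseudocount, which was 0.86 with a pseudocount of 1 and 0.97 with 0.1. The exact permutation test gave a two-sided p of 0.0286, the smallest that 4 against 4 libraries allow, and the difference did not pass when adjusted over the 6 ratios compared (adjusted p = 0.171). Among 127 catalogued hairpins with both arms tested, 8.66% had hyperlipidemic ratios that were all above the normal ones, as miR-152 did, and miR-152 was number 34 of them by the size of its difference. The difference was 0.96 without normal replicates 3 and 4 (exact permutation p = 0.133, adjusted p = 0.40).

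For miR-148a the guide was 32.9, 28.5, 38.0 and 53.2 times its passenger in hyperlipidemic replicates 1 to 4, against 41.3, 42.7, 45.4 and 41.4 times in normal replicates 1 to 4. The normal ratios were nearly equal to each other and lay inside the wider hyperlipidemic range. The mean ratios were 38.2 ± 10.8 in hyperlipidemic and 42.7 ± 1.90 in normal libraries (mean ± SD, n = 4 per diet; exact permutation p = 0.343, adjusted p = 0.514). The log2 difference was -0.20, and -0.18 without normal replicates 3 and 4.

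For miR-148b the guide was 15.5, 15.1, 11.1 and 9.93 times its passenger in hyperlipidemic replicates 1 to 4, against 9.87, 8.42, 23.7 and 14.2 times in normal replicates 1 to 4. Normal replicate 3 was the highest and normal replicate 2 the lowest of the 8. The mean ratios were 12.9 ± 2.81 in hyperlipidemic and 14.04 ± 6.88 in normal libraries (mean ± SD, n = 4 per diet; exact permutation p = 0.971, adjusted p = 0.971). The log2 difference was -0.03, and without normal replicates 3 and 4 it was 0.47. In all 8 libraries and all 3 hairpins the 3p arm was the more abundant one. Among the 127 hairpins the 3p arm was higher in 49, and by the mean log2 ratio miR-152 was number 6, miR-148a number 22 and miR-148b number 30.

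**Figure D3:**
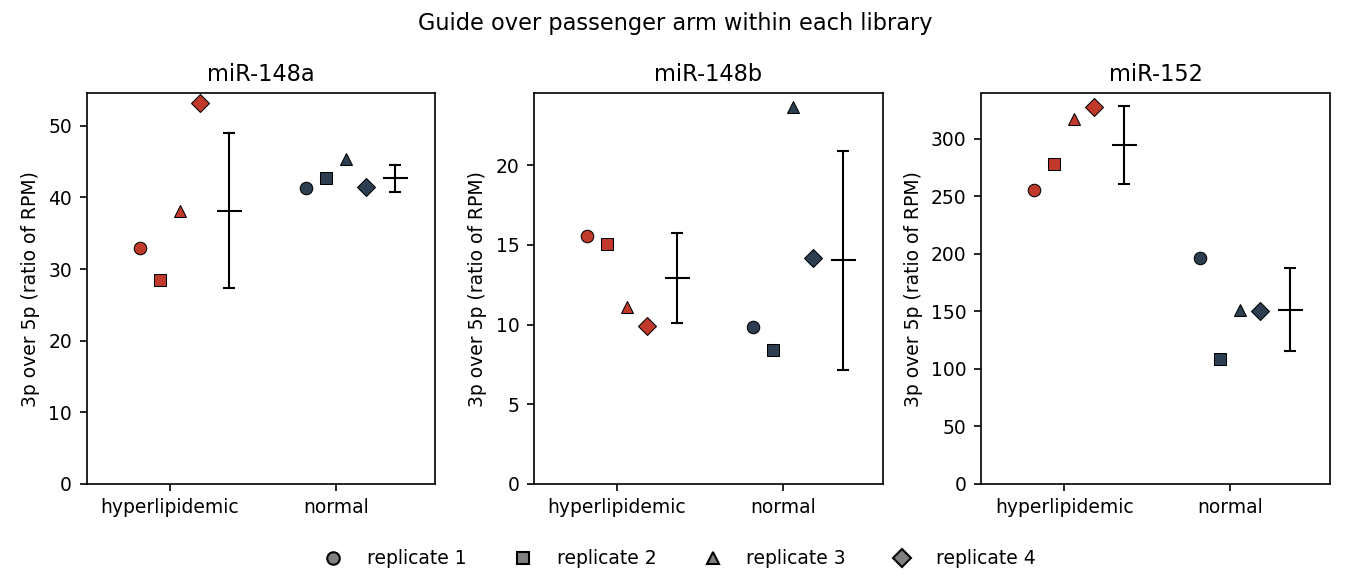
Ratio of the 3p guide to the 5p passenger within each library (y axis) for the 3 hairpins in hyperlipidemic and normal libraries, with marker shapes for replicates and the mean ± SD. The 4 hyperlipidemic ratios of miR-152 (255 to 328) lie above the 4 normal ones (108 to 196), while those of miR-148a and miR-148b overlap.

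The 3 guides kept similar proportions to each other. MiR-148a-3p made up 76.8% ± 3.28 of the reads of the 3 guides in hyperlipidemic and 77.6% ± 2.45 in normal libraries (mean ± SD, n = 4 per diet). MiR-152-3p made up 16.9% ± 3.56 in hyperlipidemic and 17.2% ± 1.97 in normal libraries, and miR-148b-3p 6.27% ± 1.10 in hyperlipidemic and 5.14% ± 0.865 in normal libraries (mean ± SD, n = 4 per diet). MiR-148a-3p was 4.71 ± 1.09 times miR-152-3p in hyperlipidemic and 4.56 ± 0.599 times in normal libraries (mean ± SD, n = 4 per diet; exact permutation p = 0.886, adjusted p = 0.971). It was 12.5 ± 2.23 times miR-148b-3p in hyperlipidemic and 15.5 ± 2.97 times in normal libraries (mean ± SD, n = 4 per diet; exact permutation p = 0.171, adjusted p = 0.514). Normal replicates 1 and 2 alone had a mean ratio of 13.0, and without replicates 3 and 4 the log2 difference was -0.07 in place of -0.30. MiR-148b-3p was 0.387 ± 0.125 of miR-152-3p in hyperlipidemic and 0.300 ± 0.0495 in normal libraries (mean ± SD, n = 4 per diet; exact permutation p = 0.286, adjusted p = 0.514). In the other ratios of guides, leaving out normal replicates 3 and 4 gave log2 differences of 0.15 for miR-148a-3p over miR-152-3p, in place of 0.03, and 0.21 for miR-148b-3p over miR-152-3p, in place of 0.33. All 3 ratios overlapped between the diets, which with 4 libraries a group does not show that they are alike.

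The family as a whole held a few percent of the catalogued signal. Its share was 1.65%, 2.15%, 1.29% and 1.62% in hyperlipidemic replicates 1 to 4, against 2.00%, 1.73%, 4.50% and 4.04% in normal replicates 1 to 4. Normal replicates 1 and 2 lay within the hyperlipidemic range, and normal replicates 3 and 4 were above it. The mean was 1.68% ± 0.358 in hyperlipidemic and 3.07% ± 1.40 in normal libraries (mean ± SD, n = 4 per diet), a difference of -1.39 percentage points that was -0.19 without normal replicates 3 and 4. The erythroid list held 19.2% to 33.1% in hyperlipidemic libraries, against 7.77% to 20.2% in normal ones, with normal replicates 3 and 4 lowest. By log2 fold 2 of its members were above 0 (miR-144-3p at 1.52 and miR-451-5p at 0.71) and 2 below, among them miR-486 at -0.14. Of the catalogued sum without that list, the family held 2.25% ± 0.397 in hyperlipidemic and 3.48% ± 1.39 in normal libraries (mean ± SD, n = 4 per diet), and 2.50% and 2.11% in normal replicates 1 and 2. The mesenchymal list (both arms of miR-199a, miR-214-3p, miR-143-3p and miR-145-5p) held 2.77% to 6.05% in hyperlipidemic libraries, against 3.79% to 7.96% in normal ones, with normal replicates 3 and 4 highest at 7.32% and 7.96%. By log2 fold 3 of its 5 members were below 0 (miR-199a-5p at -0.85, miR-143-3p at -0.46 and miR-199a-3p at -0.14) and 2 above, so this list did not move as a whole either. Of the miR-223 and miR-142 arms of the myeloid list, 3 were above 0 and 1 below. The lymphoid list (miR-150-5p, miR-342-3p and miR-181a-5p) held 1.10% to 1.36% in hyperlipidemic libraries, against 1.795% to 2.28% in normal ones, so that the diets did not overlap. Of its members only miR-181a-5p, the most abundant, was lower in hyperlipidemic libraries (log2 fold -0.86, SE 0.21, limma adjusted p = 0.0924). MiR-150-5p and miR-342-3p each had a log2 fold of 0.12, so the list did not move as a whole. The part of the cell types in the family's values was not tested.

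**Figure D4:**
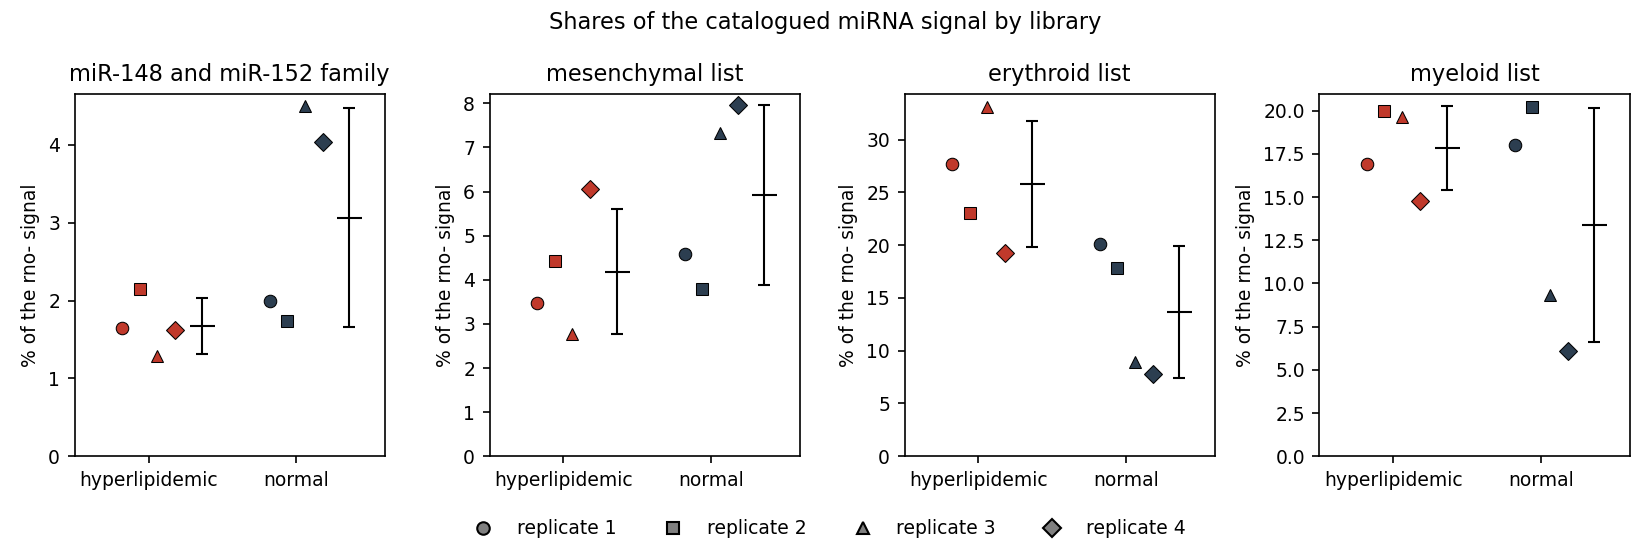
Share of the catalogued (rno-) signal (y axis, percent) held by the miR-148 and miR-152 family, the mesenchymal list, the erythroid list and the myeloid list in hyperlipidemic and normal libraries, with marker shapes for replicates and the mean ± SD. Normal replicates 3 and 4 are the 2 highest for the family (4.50% and 4.04%) and the mesenchymal list and the 2 lowest for the erythroid and myeloid lists.

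Normal replicates 3 and 4 were the 2 highest libraries for 5 of the 6 arms and for 114 of the 396 catalogued miRNAs tested (28.8%). The mean of these 2 libraries was 2.34 times that of normal replicates 1 and 2 for miR-148a-3p, 2.26 times for miR-148a-5p, 1.95 times for miR-152-3p, 1.90 times for miR-152-5p and 1.70 times for miR-148b-3p, but 0.851 times for miR-148b-5p. Against normal replicates 1 and 2 alone, the hyperlipidemic mean was 0.916 times as high for miR-148a-3p, 0.964 times for miR-148b-3p and 0.838 times for miR-152-3p. Among the passengers it was 1.09 times as high for miR-148a-5p, 0.695 times for miR-148b-5p and 0.422 times for miR-152-5p.

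The catalogued miRNAs most like each guide across the 8 libraries were found by the root-mean-square difference of log2 values, each centred on its own mean, among the 171 miRNAs outside the family with a mean of at least 100 RPM. Nearest to miR-148a-3p were miR-28-3p (0.15 log2 units), miR-378b (0.15) and let-7f-5p (0.20), where the median over all 171 was 0.57. Let-7f-5p stood at 15189 ± 1849 RPM in hyperlipidemic and 24931 ± 9779 RPM in normal libraries (mean ± SD, n = 4 per diet). Nearest to miR-148b-3p were miR-107-3p (0.13), miR-103-3p (0.14), which shares its seed family with miR-107, and miR-101b-3p (0.15), with a median of 0.49. Nearest to miR-152-3p were miR-322-3p (0.19), miR-22-3p (0.19) and miR-378b (0.20), with a median of 0.56. Of the 171, 7 were nearer to miR-148a-3p than miR-152-3p was (0.25), 9 were nearer than its own passenger miR-148a-5p (0.26), and 12 were nearer than miR-148b-3p (0.27). The passenger miR-148b-5p was at 0.45 from its guide, with 76 of the 171 nearer, and miR-152-5p at 0.52 from its guide, with 77 nearer. With means of 83.9 and 19.0 RPM, both passengers lie below the 100 RPM asked of the 171. Counting error can therefore widen their distances more, and the part it has was not tested. The libraries, their depth and their make-up of cells are common to all these profiles.

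Other miRNAs described as acting where the family is described to act did not pass. Their counts stand beside 15.7% with an unadjusted p under 0.05, 61.9% with a log2 fold below 0 and a median of -0.20 over all catalogued miRNAs tested. Of 14 miRNAs listed as cholesterol-handling, described as acting on the LDL receptor, ABCA1 or lipoprotein transcripts, 12 were tested, with 6 log2 folds below 0 and 6 above (median -0.04, none past the threshold by limma, 1 with an unadjusted p under 0.05). That 1 is the erythroid miR-144-3p, which also targets ABCA1, at 149865 ± 44141 RPM in hyperlipidemic and 60314 ± 39407 RPM in normal libraries (mean ± SD, n = 4 per diet; log2 fold 1.52, SE 0.48, limma adjusted p = 0.153). Among osteoclast-promoting miRNAs, the group in which miR-148a is placed, 4 of 7 were below 0 and 3 above (median -0.03, none past the threshold, 3 with an unadjusted p under 0.05). Their most abundant member, miR-21-5p, had a log2 fold of -0.89 (SE 0.28, limma adjusted p = 0.153). It is 1 of those 3, while the others, miR-29b-3p and miR-29c-3p, lay above 0. Of the osteoclast-inhibiting miRNAs all 9 tested were below 0 (median -0.45, none past the threshold, 1 with an unadjusted p under 0.05), with miR-146a-5p at -0.68 (SE 0.23, limma adjusted p = 0.158). The miR-29 guides, described as acting on DNMT3A and DNMT3B, lay on the other side from the DNMT1-linked family in 2 of 3 members: miR-29b-3p was at a log2 fold of 1.56 (SE 0.65, limma adjusted p = 0.257), miR-29c-3p at 1.03 (SE 0.41, limma adjusted p = 0.240) and miR-29a-3p at -0.03 (SE 0.20). MiR-29b-3p varied widely in normal libraries (4745 ± 3925 RPM, mean ± SD, n = 4). The listed miRNAs are given with all 8 libraries only, normal replicates 3 and 4 included. The lists overlap: the 3 miR-29 guides are also among the osteoclast-promoting miRNAs. MiR-26a-5p is both in the cholesterol-handling and in the osteoclast-inhibiting list.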

How the data were processed

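Adapters were ligated to both ends of the RNA, the library was size-selected on a gel (140 to 160 bp) and sequenced as single reads of 50 bp, per the labels' protocols. Of the processing before deposit, the submitters' processing notes give the program bcl2fastq 1.8.4 and the genome build Rnor_6.0, and no aligner, miRNA reference or counting rule. The authors deposited 1 table whose signal is in reads per 1000000, scaled separately for 604 catalogued (rno-) and 370 predicted miRNAs, with their own fold (a ratio), log2 fold, p-value and adjusted p-value, per the file headers. Low values, up to 20 reads, were whole multiples of 1 read within 0.1 read in 100% of cases, so reads were recovered from them.

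Values were tested as log2(value + 0.475), with 0.475 the median of the 8 libraries' smallest positive values, with limma 3.58.1 in R 4.3.3 (variance trend, two-sided) over all miRNAs above 0 in at least 4 libraries and with a mean of at least 2.375 RPM, and adjusted by Benjamini-Hochberg. Ratios were tested by exact permutation (scipy 1.17.1). The fit was also run on simulated counts. These used the pooled depth of both classes and set no library apart, so that run does not show how the fit behaves on these libraries. The members, lists, tests and most alternatives were chosen with earlier results of these data known. The naming rule took all members, the 3 most similar miRNAs for each guide and the 3 most abundant of each list, of which a part is printed.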

Additional observations from a re-analysis of the deposited data

Results flagged for a closer look

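In hyperlipidemic replicate 1, miR-148b-5p stood at 48.0 RPM, far below the 78.3 to 81.3 RPM of the other 3 hyperlipidemic libraries: the gap took 91.1% of the range of the group. It rested on 231 reads. Of 26 groups of 4 examined in this way (the 6 arms, 6 ratios and the family's share in each diet), this was the 1 that stood out, where chance gives about 1 in 20.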

How the results depend on the processing

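Across 20 alternatives, 119 of 120 log2 folds of the 6 arms stayed below 0, and 1 passed the threshold. These are not separate tests, since the alternatives use the same libraries or most of them. Omitting the low-value filter or the variance trend, fitting the catalogued class alone, or blocking by replicate number cannot change a log2 fold. Without normal replicates 3 and 4, miR-148a-5p was at 0.032 and the log2 ratio of miR-148b-3p over miR-148b-5p at 0.47, on the other side of 0 from their values with all libraries. By voom on the recovered reads of both classes miR-152-5p passed (log2 fold -1.71, adjusted p = 0.0393), which made 1 member past the threshold. Over the 20 alternatives its log2 fold ran from -1.92 to -1.25 and its adjusted p from 0.0393 to 0.464. Leaving out 1 library at a time, the log2 ratio of miR-148b-3p over miR-148b-5p ran from -0.24 to 0.26 and that of miR-148a-3p over miR-152-3p from -0.078 to 0.18, so neither has a settled sign. The count of miRNAs past the threshold over the whole table, 5 with all libraries, was 10 with a pseudocount of 1, 8 with median-of-ratios factors, 9 with quantile normalization, 3 with the catalogued class alone, 44 by voom with both classes on 1 depth, 1 by voom with each class on its own depth (added after seeing the data), and 0 to 12 without 1 library: 0 without hyperlipidemic replicate 1, 2 or 3, and 12 without normal replicate 1. The cause was not tested. With the replicate number as a block the count was 0 (113 had an unadjusted p under 0.05), and miR-152-5p had an adjusted p of 0.188 by limma. The deviations of same-numbered libraries from their group means had correlations of 0.19, -0.08, -0.02 and 0.15 for numbers 1 to 4. Those of libraries with different numbers ran from -0.16 to 0.08, so numbers 1 and 4 lay above that range and numbers 2 and 3 within it. All were low and the labels name no pairs, so the numbers were not taken as pairs in the main fit. The 121 and 161 reads of miR-152-5p in hyperlipidemic and normal libraries limit its precision.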
